A study of Mus musculus with 15 samples.

Results

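The macrophage genes described here are 45 genes known from tissue macrophages, taken by symbol. They were chosen with earlier results of these data known. Each of the 45 symbols has 1 row in the table of 37991 genes. Of these genes, 42 passed the filter on low counts and were tested among 12188 tested genes in all, and Trem2, Spp1 and Arg1 did not pass. RNA was sequenced from the whole inguinal white fat, which lies under the skin of the groin, of C57BL/6 mice aged 8 weeks, as 15 libraries, 5 in each of 3 groups. The labels of 2 dKO libraries, 1753 and 1753-2, do not say whether they are 1 mouse, so dKO may hold fewer mice than libraries. In dKO mice AdipoqCre was combined with floxed LKB1 and floxed HDAC4 alleles. In KO mice it was combined with floxed LKB1 alleles, and WT mice had the floxed LKB1 alleles (LKB1 F/F) with no Cre named. All groups therefore share the floxed LKB1 alleles. LKB1, encoded by Stk11, is a kinase that activates AMPK and related kinases, and HDAC4 is a class IIa histone deacetylase. AdipoqCre is a recombinase driven by the adiponectin promoter and is active in adipocytes, so the macrophages of these mice are not the cells it targets. Mice with AdipoqCre alone, or with HDAC4 alone targeted, were not analysed here. A bulk library mixes the RNA of all cells in the tissue, so fewer macrophages and less RNA per macrophage cannot be told apart in any value below.

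Macrophages are phagocytes of the innate immune system. In adipose tissue they lie between adipocytes and along vessels, clear dying adipocytes, take up lipid and release cytokines and growth factors. Resident macrophages that bear TIM4, LYVE1 and folate receptor beta are commonly set apart from monocyte-derived ones that bear CCR2 and CD11c, and from lipid-associated ones that express Trem2, Gpnmb, Spp1 and Lgals3. The receptor of the growth factor CSF1, encoded by Csf1r, is needed for their survival, and the transcription factor PU.1 sets up much of their gene expression. Several of the 45 genes are used by other cells too. Lyve1 is a marker of lymphatic endothelium, Fcgr2b and Cybb are expressed by B cells, Itgax by dendritic cells, Pf4 by megakaryocytes, and Laptm5 by most leukocytes.

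Total counts per library were 1564004 to 12089891 in dKO, 2969355 to 21570688 in KO and 2181109 to 4062909 in WT. Levels are given as CPM, counts scaled to a common library size with TMM factors, and as CPM per kilobase of exon where genes are compared with each other. The targeted gene Stk11 had 16.6 to 22.7 CPM in dKO, 11.6 to 22.5 CPM in KO and 22.2 to 37.8 CPM in WT, with an edgeR log2 fold change of -0.69 in KO against WT (adjusted p = 0.115) and of -0.63 in dKO against WT (adjusted p = 0.136). The larger of the 2 features named Hdac4 had 9.41 to 11.2 CPM in dKO, 8.17 to 13.4 CPM in KO and 7.63 to 16.1 CPM in WT, and counts over a whole gene do not resolve the deleted exons. dKO libraries 4 and 5, with the mouse labels 1753 and 1753-2, differed from the other 3 of their group, and WT library 4 stood apart in many macrophage genes. Values without these libraries are given beside the results they touch. Barcode and genotype cannot be told apart for dKO, since barcodes 12 to 16 were used for that group alone. Nothing in the labels gives litters, batches or days. The p-values weigh group differences against the spread within the groups of these 15 libraries, with 1753 and 1753-2 counted as separate samples.

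The 45 genes together took 0.208 to 0.331% of the counts outside mitochondrial ribosomal RNA in dKO libraries, 0.224 to 0.342% in KO libraries and 0.291 to 0.595% in WT libraries. The medians were 0.259% in dKO, 0.299% in KO and 0.379% in WT, and each pair of neighbouring groups overlapped. Among the genes, levels per length spanned over 3 orders of magnitude. Averaged over the 15 libraries, Lyz2, the lysozyme of macrophages, was by far the most abundant with 404 CPM per kilobase. Retnla, a secreted protein of alternatively activated macrophages, followed with 87.5, and then Tyrobp, the signalling adaptor DAP12, with 46.6, C1qb with 42.6, Laptm5 with 33.1 and Fcer1g, the common gamma chain of Fc receptors, with 29.4 CPM per kilobase. At the low end were Cx3cr1, the fractalkine receptor, with 0.920, Spp1, osteopontin, with 0.598, and Trem2, a lipid-sensing receptor, with 0.268 CPM per kilobase. The pan-macrophage genes Csf1r, Cd68, Mpeg1 and Emr1, which encodes F4/80, had counts in every library, the lowest being 26 counts for Emr1 in a dKO library. The pan-macrophage label is taken from what is known of these genes. Counts in whole fat do not show which cells the RNA came from.

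The genes below the filter had few counts. Trem2 had 1 to 13 counts in dKO libraries, 2 to 22 in KO libraries and 1 to 18 in WT libraries. Spp1 had 0 to 9 counts in dKO, 2 to 6 in KO and 1 to 11 in WT. Arg1, arginase of alternatively activated macrophages, had 3 to 21 counts in dKO, 1 to 70 in KO and 3 to 6 in WT, and the 70 counts came from the deepest library, where they amount to 3.39 CPM. No difference between groups is given for these genes. The tested genes with few counts, among them Cd14 with 2 to 33, Clec7a with 2 to 77 and Cx3cr1 with 0 to 80 counts in a library, also rest on few reads.

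Promoter sequence is given because PU.1, which acts on many macrophage genes, often binds sites that hold GAGGAA. Forms of its site without GAGGAA were not searched, so a window without these letters may still hold one. RefSeq's windows of the 250 bases before the transcription start (build GRCm38.p6) were at hand for 35 of the 45 genes. GAGGAA, searched on both strands, was present in 17 of these 35 genes (48.6%) and in 25.9% of the 27025 genes with such a window. The longer form GAGGAAGT, every match of which also holds the shorter one, was in 4 of 35 genes (11.4%), which were C1qc, Pf4, Spp1 and Retnla, and in 2.8% of all genes. The AP-1 motif TGANTCA was in 7 of 35 genes (20.0%) and in 7.8% of all genes. These are matches of letters and not measured binding sites. The windows of 2 complement genes, C1qb and C1qc, and of the most abundant gene, Lyz2, which has no GAGGAA in its window, are given here. GAGGAA, or TTCCTC where it lies on the other strand, is in capitals.
C1qb (chr4:136886201-136886450, minus strand): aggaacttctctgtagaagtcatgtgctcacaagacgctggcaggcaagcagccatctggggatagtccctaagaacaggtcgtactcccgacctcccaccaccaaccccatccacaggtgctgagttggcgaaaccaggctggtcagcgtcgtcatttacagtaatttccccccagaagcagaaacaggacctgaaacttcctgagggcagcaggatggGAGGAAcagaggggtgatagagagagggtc
C1qc (chr4:136892915-136893164, minus strand): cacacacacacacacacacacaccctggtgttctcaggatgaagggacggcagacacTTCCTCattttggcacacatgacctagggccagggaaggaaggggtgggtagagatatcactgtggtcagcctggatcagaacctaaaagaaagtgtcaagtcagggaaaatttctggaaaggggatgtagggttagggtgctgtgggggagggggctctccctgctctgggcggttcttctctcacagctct
Lyz2 (chr10:117282273-117282522, minus strand): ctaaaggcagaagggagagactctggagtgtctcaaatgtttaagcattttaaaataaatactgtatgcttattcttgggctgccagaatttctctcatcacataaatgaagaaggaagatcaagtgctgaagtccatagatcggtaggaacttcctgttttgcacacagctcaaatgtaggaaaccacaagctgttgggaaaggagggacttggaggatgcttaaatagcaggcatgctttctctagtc
The capitals of C1qb lie close to RefSeq's start of transcription. The bases after that start were not found in GENCODE's protein-coding C1qb transcripts, unlike those of C1qc and Lyz2, so this distance is uncertain. The capitals of C1qc lie in the far part of the window, where the 2 bases before them complete GAGGAAGT on the other strand.

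**Figure D1:**
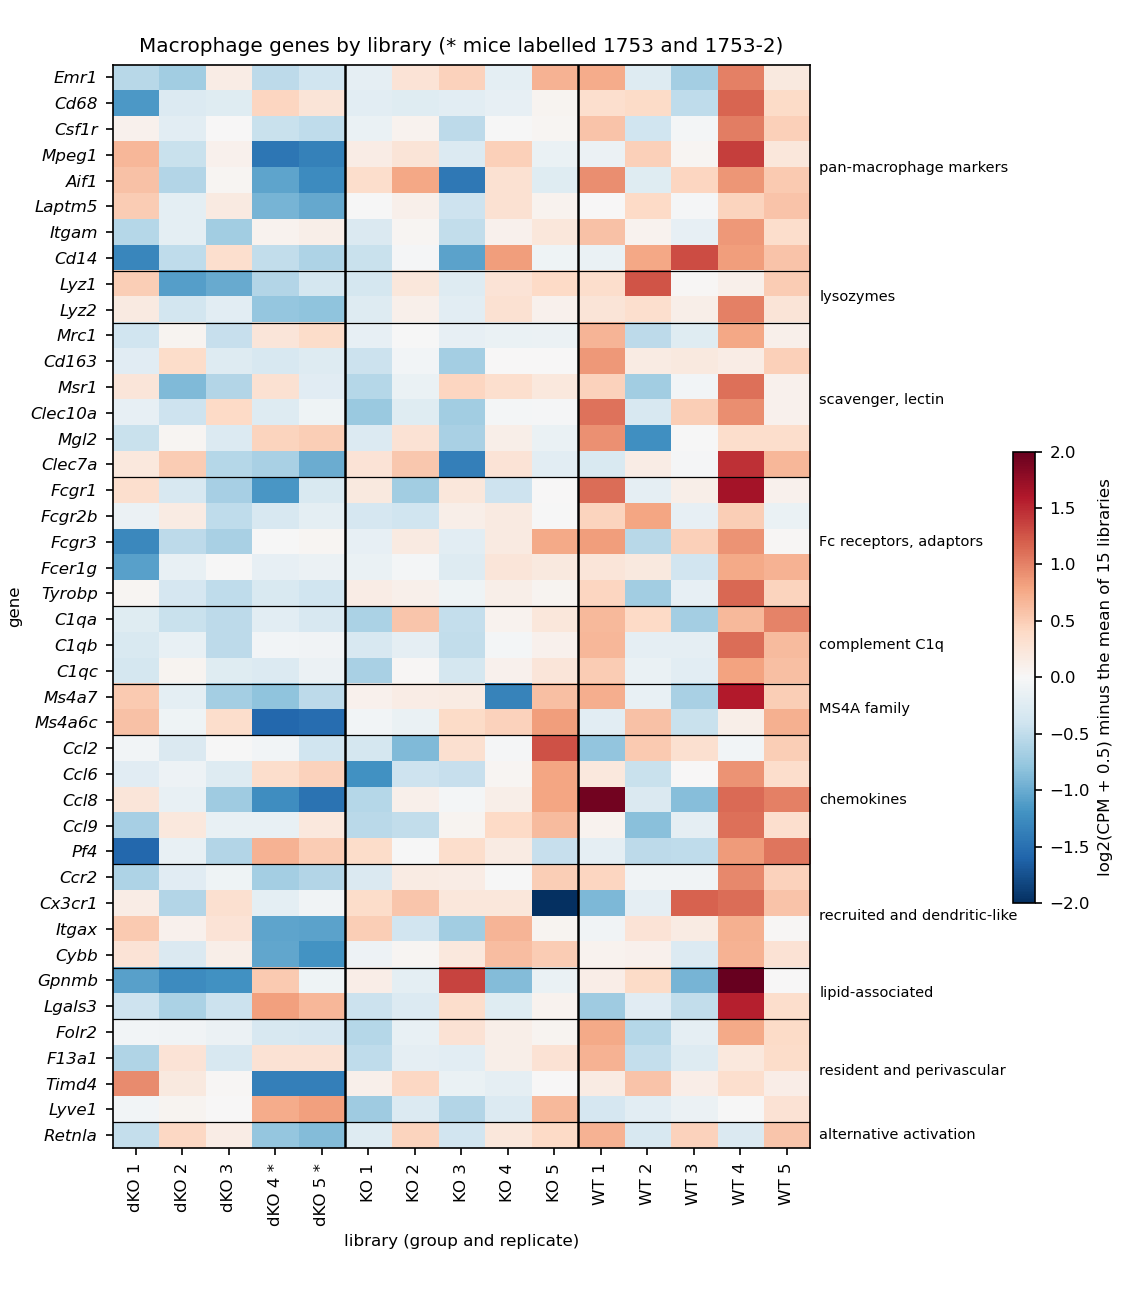
Level of each of the 42 tested macrophage genes (rows, ordered by role) in each of the 15 libraries (columns, dKO, KO, then WT), as log2(CPM + 0.5) minus the gene's mean over the libraries. Red marks a level above that mean and blue one below it. WT library 4 is red in most rows, and the dKO libraries 4 and 5, marked with an asterisk, are blue in Mpeg1, Laptm5, Ms4a6c, Ccl8, Itgax, Cybb and Timd4 and red in Lgals3, Pf4 and Lyve1.

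Targeting LKB1 in adipocytes (KO against WT) went with lower values of most macrophage genes, and no single gene passed the test over all genes. Of the 42 tested genes, 40 had a negative log2 fold change, as did 49.4% of the 12188 tested genes, and the median was -0.39 for the macrophage genes and 0.01 for all genes. edgeR's quasi-likelihood test with Benjamini-Hochberg adjustment called 0 of the 42 macrophage genes and 0.624% of all tested genes. At an unadjusted p under 0.05, 10 of the 42 were lower and 0 higher, where 3.89% of all genes were lower and 5.65% higher. DESeq2 called 1 of them, Clec10a (log2 fold change -0.92, adjusted p = 0.0489), where it called 1.54% of all genes, and limma voom with sample weights called 2, Clec10a (-1.03, 0.0199) and Cd163 (-0.63, 0.0437), where it called 2.35% of all genes. The count of 10 depended on single libraries, being 3 without WT library 4, 5 without WT library 1, 4 without KO library 1 and 5 without KO library 3. The median was -0.23 without WT library 4.

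The genes with the smallest p in KO against WT were scavenger and lectin receptors and a C1q chain. Clec10a (ENSMUSG00000000318, mm9 chr11:69980125-69984336, 11 exons), a galactose-type lectin of macrophages and dendritic cells, had 12, 10, 18, 11.2 and 12.7 CPM in dKO, 7.89, 11.4, 8.17, 13.2 and 13.4 CPM in KO, and 29.3, 10.8, 19.3, 26.3 and 14.4 CPM in WT. The KO libraries lay below 4 of the 5 WT libraries, and WT library 2 lay within their range. Its log2 fold change in KO against WT was -0.90 (SE 0.26), 1.87-fold lower, with an edgeR adjusted p of 0.148. About 8.6% of the 50-base windows of its transcripts also occur in its neighbour Mgl2, so some reads may not be assigned to one of them alone.

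Cd163 (ENSMUSG00000008845, mm9 chr6:124254669-124280545, 17 exons), the haemoglobin scavenger receptor of resident macrophages, had 27.3, 41.2, 26.7, 25.5 and 26.7 CPM in dKO, 23.5, 30.7, 19.8, 31.9 and 31.9 CPM in KO, and 58.3, 35.6, 36.5, 35.5 and 44.6 CPM in WT. It was the single macrophage gene of which every KO library lay below every WT library, where 1.05% of all tested genes did so. The log2 fold change of Cd163 was -0.61 (SE 0.19; edgeR adjusted p = 0.198). The dKO libraries lay below the WT libraries too, except for dKO library 2.

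The mannose receptor Mrc1 (CD206; ENSMUSG00000026712, mm9 chr2:14151041-14253684, 30 exons), the most abundant receptor in this group, had 95.1, 130, 91.4, 148 and 162 CPM in dKO, 112, 125, 112, 115 and 116 CPM in KO, and 202, 87.1, 106, 215 and 135 CPM in WT. Its KO libraries lay close together inside the wide WT range, with a log2 fold change of -0.36 (SE 0.22; edgeR adjusted p = 0.679). All 6 scavenger and lectin receptors had negative values in KO against WT, with a median of -0.39, and the other 3, Msr1, Mgl2 and Clec7a, lay between -0.24 and -0.43.

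C1q, which starts the classical complement pathway, is made of the products of 3 neighbouring genes on mm9 chromosome 4, and macrophages are a main source of it. C1qb (ENSMUSG00000036905, chr4:136436044-136442102, 3 exons) had 35.4, 39.4, 30.5, 42.2 and 41.7 CPM in dKO, 35.2, 38.7, 30.9, 42.6 and 46.8 CPM in KO, and 69.6, 38.7, 38.6, 95.8 and 68.7 CPM in WT. The dKO and KO libraries shared one range, which 3 WT libraries exceeded and the other 2 WT libraries did not. Its log2 fold change was -0.68 (SE 0.21; edgeR adjusted p = 0.21) in KO against WT and -0.70 (SE 0.21; adjusted p = 0.144) in dKO against WT. C1qa and C1qc had -0.52 and -0.48 in KO against WT. No 50-base window is shared between C1qb and the other 2 genes.

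**Figure D2:**
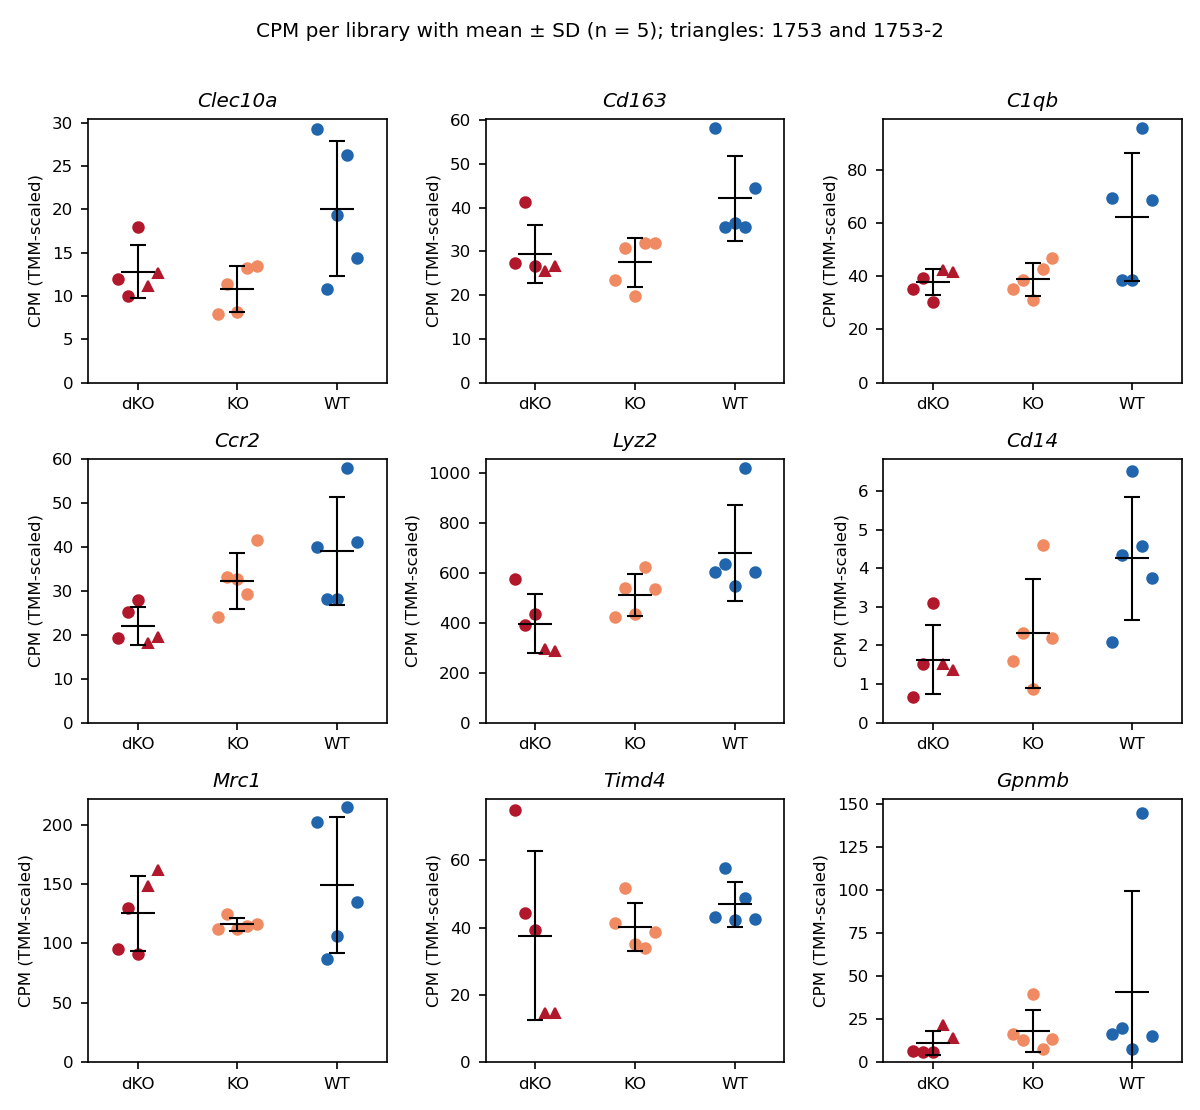
CPM of 9 macrophage genes per library in dKO (red), KO (orange) and WT (blue), with the mean and SD of the 5 libraries of each group. Triangles mark the dKO libraries 4 and 5. Cd163 has no overlap between KO and WT, Ccr2 has none between dKO and WT, and the mean of Gpnmb in WT is set by 1 library at 145 CPM, where the lower end of the SD bar runs below the axis.

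Among the other pan-macrophage genes, all 8 had negative values in KO against WT, and Cd68, Csf1r, Itgam and Cd14 had an unadjusted p under 0.05. Csf1r averaged 47.5 ± 8.66 CPM in dKO, 51.1 ± 7.98 CPM in KO and 72.8 ± 27.5 CPM in WT (SD, n = 5 each). Its log2 fold change was -0.50 (SE 0.21; edgeR adjusted p = 0.439) in KO against WT, and 871 bases of its exons overlap exons of Hmgxb3 on the opposite strand, so that some of its counts may belong to that gene. Itgam, the CD11b integrin chain, averaged 54.1 ± 13.6 CPM in dKO, 60.4 ± 12.04 CPM in KO and 82.8 ± 23.8 CPM in WT, and Cd68, a lysosomal glycoprotein of phagocytes, averaged 23.4 ± 9.02 CPM in dKO, 22.5 ± 2.09 CPM in KO and 34.4 ± 14.1 CPM in WT. The WT spread of these 3 genes exceeded that of KO, and WT library 4 was the highest WT library in each of them.

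Some genes had nearly equal levels in KO and WT. Emr1 (ENSMUSG00000004730, mm9 chr17:57498109-57622952, 22 exons) had 9.74, 8.79, 16.2, 10 and 11 CPM in dKO, 12.9, 17.7, 20.2, 12.7 and 24.0 CPM in KO, and 24.8, 12.1, 8.91, 29.8 and 16.8 CPM in WT. KO and WT overlapped throughout, with a log2 fold change of -0.10 (SE 0.28; edgeR adjusted p = 0.961), and Emr1 was at 0.11 without WT library 4. Cybb, the catalytic subunit of the phagocyte NADPH oxidase, and Ms4a6c, a four-span membrane protein of myeloid cells, were the only tested members with positive values, 0.06 (SE 0.26) and 0.10 (SE 0.39). Of the attractants, Ccl2, the main ligand of CCR2, averaged 3.90 ± 0.502 CPM in dKO, 5.33 ± 3.54 CPM in KO and 5.02 ± 1.75 CPM in WT, with a KO against WT value of -0.02 (SE 0.37).

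Mice with both genes targeted (dKO against WT) had the median farthest from 0 of the 3 comparisons. A negative log2 fold change was found for 41 of the 42 tested genes, where 50.3% of all tested genes had one, and the median was -0.57, against -0.00 for all genes. The exception was Lyve1 (0.45, SE 0.24). edgeR called 0 of the 42 genes, where it called 0.615% of all genes, and at an unadjusted p under 0.05 it had 23 of the 42 lower and 0 higher, where 5.51% of all genes were lower and 9.01% higher. These 23 were 6 of 8 pan-macrophage genes, both lysozymes, Cd163 and Clec10a, all 5 Fc receptors and adaptors, all 3 C1q genes, and Ms4a7, Ccl8, Ccr2, Gpnmb and Folr2. DESeq2 called 4 of the macrophage genes, Ccr2 (log2 fold change -0.87, adjusted p = 0.0121), Lyz2 (-0.79, 0.0214), Cd14 (-1.52, 0.0374) and Ccl8 (-1.56, 0.0481), where it called 1.93% of all genes, and voom called 0, where it called 0.230% of all genes and 19 of the 42 had p under 0.05 before adjustment. Without dKO library 1 edgeR called 2, Lyz2 and Lyz1, and without the filter on low counts it called 2, Ccr2 (adjusted p = 0.0448) and Lyz2 (0.0451). Both comparisons use the same 5 WT libraries, so their values are not independent of each other.

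Ccr2 (ENSMUSG00000049103, mm9 chr9:124016689-124028296, 3 exons), the receptor by which monocytes leave the marrow and enter tissues, had 19.2, 25.1, 28.0, 18.2 and 19.5 CPM in dKO, 24.1, 33.2, 32.7, 29.4 and 41.7 CPM in KO, and 40.0, 28.2, 28.2, 58.0 and 41.1 CPM in WT. It was the single macrophage gene with every dKO library below every WT library, by a narrow gap, where 0.796% of all tested genes did so. This count was 4 without dKO library 1, 3 without WT library 3, and 2 without dKO library 3 or without WT library 1. It was 0 without WT library 5, dKO library 5, KO library 3 or KO library 5. Leaving out a library cannot itself bring separate groups to overlap, so each 0 came from the recomputed scaling. Groups with fewer libraries separate more easily by chance, and the share of all genes was not computed for these subsets. The log2 fold change of Ccr2 was -0.85 (SE 0.21), 1.80-fold lower, with an edgeR adjusted p of 0.0708, the lowest of any macrophage gene in any of the 3 comparisons.

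The lysozymes, which cleave bacterial cell walls, had close values. Lyz2 (ENSMUSG00000069516, mm9 chr10:116714390-116719377, 4 exons) had 575, 391, 435, 297 and 288 CPM in dKO, 422, 541, 436, 624 and 537 CPM in KO, and 604, 635, 546, 1019 and 603 CPM in WT. The dKO libraries lay below the WT libraries except for dKO library 1, which lay above the lowest WT library. The log2 fold change of Lyz2 was -0.78 (SE 0.20; edgeR adjusted p = 0.10) in dKO against WT and -0.41 (SE 0.20; adjusted p = 0.559) in KO against WT. Its paralog Lyz1 averaged 26.0 ± 13.1 CPM in dKO, 36.4 ± 8.31 CPM in KO and 49.3 ± 19.2 CPM in WT, and its values relative to WT were -0.92 in dKO and -0.44 in KO. Since 16.1% of the 50-base windows of Lyz1 also occur in Lyz2, part of the Lyz1 counts may come from the far more abundant Lyz2.

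Cd14, the lipopolysaccharide co-receptor, had the most negative value among the pan-macrophage genes, on few counts, with 0.649, 1.51, 3.11, 1.52 and 1.36 CPM in dKO, 1.60, 2.31, 0.860, 4.60 and 2.18 CPM in KO, and 2.09, 4.34, 6.53, 4.58 and 3.74 CPM in WT. The groups overlapped, since dKO library 3 lay above WT library 1. Its log2 fold change was -1.49 (SE 0.42), 2.82-fold lower, with an edgeR adjusted p of 0.125. Ccl8 (ENSMUSG00000009185, mm9 chr11:81928687-81930301, 3 exons), a chemokine of resident macrophages, had 10.1, 7.53, 4.97, 3.27 and 2.71 CPM in dKO, 5.52, 9.09, 8.17, 9.21 and 14.9 CPM in KO, and 33.7, 6.82, 4.45, 19.1 and 17.4 CPM in WT. WT libraries 2 and 3 lay among the dKO libraries, and the other 3 WT libraries lay above all of them. Its value was -1.61 (SE 0.50), 3.05-fold lower (edgeR adjusted p = 0.16).

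The Fc receptors, which bind the tails of antibodies, and their adaptors had negative values in all 5 genes in each comparison. Tyrobp (ENSMUSG00000030579, mm9 chr7:31198807-31202596, 5 exons) had 25.6, 19.6, 17.4, 20.2 and 18.9 CPM in dKO, 27.8, 26.8, 23.6, 27.1 and 25.8 CPM in KO, and 33.7, 15.2, 22.3, 55.7 and 34.2 CPM in WT. Its dKO and KO libraries were narrow and overlapped only through dKO library 1, while the WT libraries spanned both ranges. The log2 fold change of Tyrobp was -0.65 (SE 0.24; edgeR adjusted p = 0.229) in dKO against WT and -0.28 (SE 0.24) in KO against WT. Fcgr1, the high-affinity IgG receptor, averaged 2.46 ± 1.13 CPM in dKO, 3.01 ± 0.910 CPM in KO and 5.77 ± 3.69 CPM in WT, with -1.24 (SE 0.42) in dKO against WT and -0.91 (SE 0.40) in KO against WT. Fcgr2b, the inhibitory IgG receptor, had -0.50 in dKO against WT and -0.43 in KO against WT. Fcgr3 shares 10.2% of its 50-base windows with Fcgr2b.

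**Figure D3:**
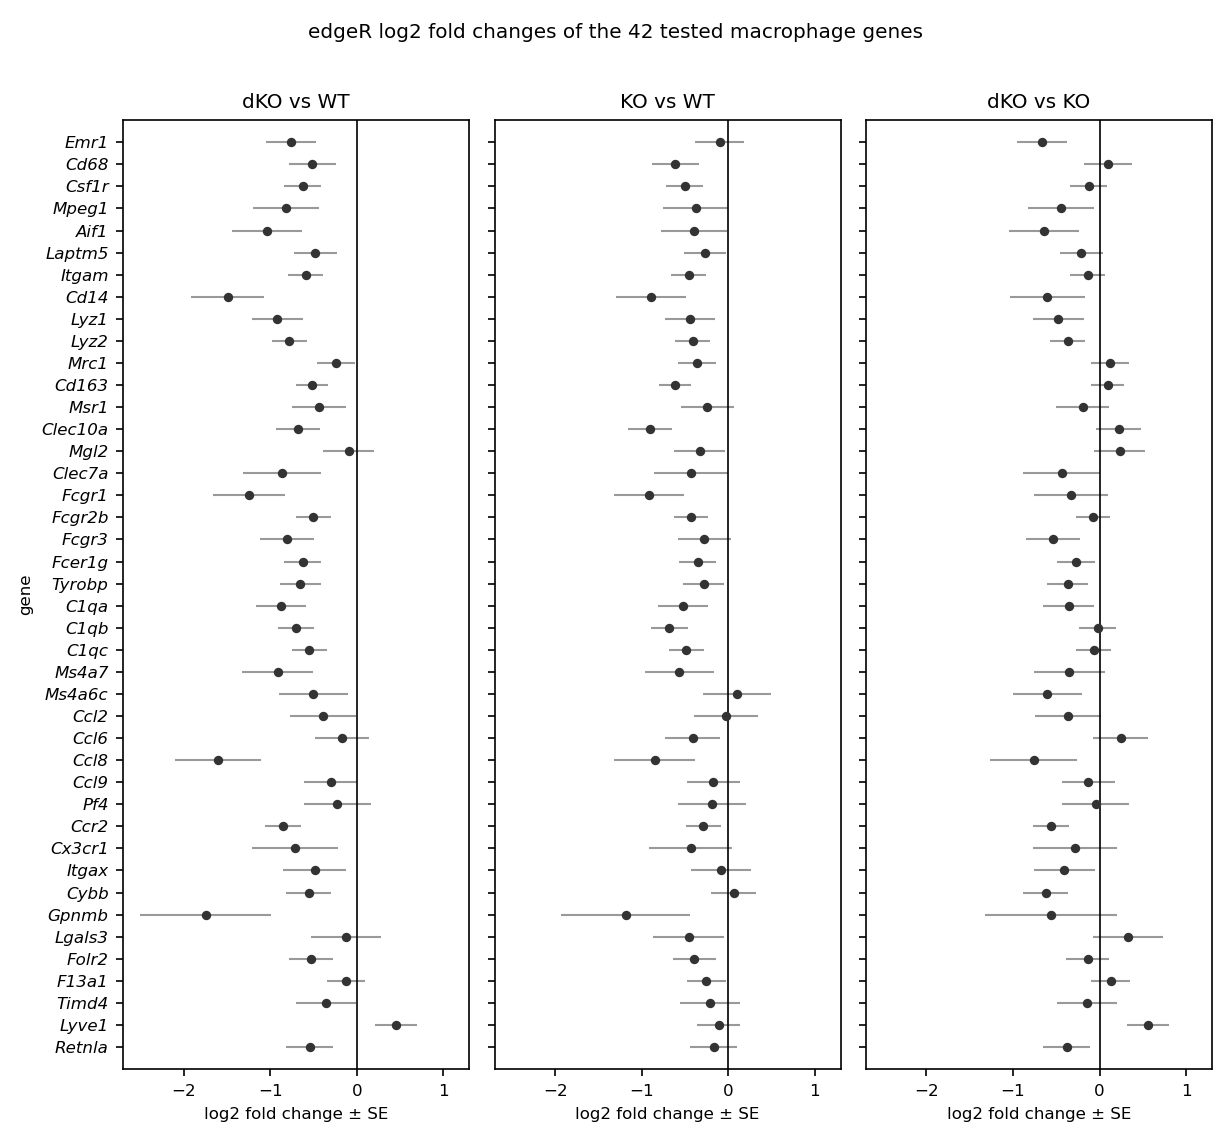
edgeR log2 fold change of each of the 42 tested macrophage genes, with a standard error derived from the test statistic. Panels give dKO against WT (left), KO against WT (middle) and dKO against KO (right), with genes in the order of their roles. Points left of the line at 0 are lower in the group named first. The left panel has 41 points left of the line, the middle 40 and the right 33, and no gene passed an adjusted p of 0.05.

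Adding the HDAC4 deletion (dKO against KO) went with smaller and less uniform values. Of the 42 genes, 33 had a negative log2 fold change, where 49.6% of all genes had one, with a median of -0.28 against 0.00 for all genes. edgeR called 0 of the 42 genes, where it called 0.0738% of all genes, and DESeq2 and voom also called 0, where they called 0.304% and 0.0738% of all genes. At an unadjusted p under 0.05, 3 were lower, which were Ccr2, Cybb and Emr1, and 1 was higher, Lyve1, where 2.85% of all genes were lower and 3.32% higher. At that threshold DESeq2 had the same 4 genes, and voom had Lyz1, Aif1 and Cybb lower and Lyve1 higher, without Ccr2 and Emr1. For 0 of the 42 did every dKO library lie below every KO library, where 0.500% of all genes did so. Leaving out both 1753 libraries brought the median to -0.12 and the count at an unadjusted p under 0.05 to 1 lower, and the count of macrophage genes without overlap to 3. The count at an unadjusted p was also 1 without dKO library 4, without dKO library 5 or without KO library 5, and 7 without dKO library 1. The count without overlap was 2 without dKO library 1 and 1 without dKO library 3, KO library 1 or KO library 3. Groups with fewer libraries separate more easily by chance, and the shares of all genes were not computed for these subsets.

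Ccr2 had a log2 fold change of -0.56 (SE 0.21; edgeR adjusted p = 0.696), and its libraries overlapped only where KO library 1, at 24.1 CPM, lay below dKO libraries 2 and 3. Cybb (ENSMUSG00000015340, mm9 chrX:9012378-9064897, 15 exons) had 70.4, 47.5, 63.4, 28.3 and 25.3 CPM in dKO, 54.2, 59.7, 67.9, 89.5 and 83.1 CPM in KO, and 61.5, 62.3, 48.4, 94.6 and 71.1 CPM in WT. The dKO libraries 4 and 5 lay below every other library, and the other 3 dKO libraries lay within or just under the KO range. Its value was -0.62 (SE 0.26; edgeR adjusted p = 0.77), and Cybb was at -0.22 without both 1753 libraries. Emr1 had -0.66 (SE 0.29; edgeR adjusted p = 0.77), with 4 of the 5 dKO libraries below all KO libraries and dKO library 3 at 16.2 CPM within them.

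Lyve1, a hyaluronan receptor of perivascular macrophages and of lymphatic vessels, went the other way. It had 38.6, 41.9, 40.4, 67.2 and 71.3 CPM in dKO, 24.2, 33.1, 26.7, 33.1 and 63.2 CPM in KO, and 31.6, 34.7, 37.1, 39.7 and 49.2 CPM in WT. All dKO libraries lay above 4 of the 5 KO libraries, KO library 5 being the exception, and the 2 highest were dKO libraries 4 and 5. Its log2 fold change was 0.56 (SE 0.24; edgeR adjusted p = 0.77) in dKO against KO. The 5 lymphatic endothelial markers had a median of 0.02 in the same comparison and a summed level of 15.5 to 43.8 CPM in dKO and 18.1 to 35.2 CPM in KO. The part of lymphatic endothelium in the Lyve1 values was not tested.

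Timd4 (ENSMUSG00000055546, mm9 chr11:46624302-46657834, 9 exons), which encodes the phosphatidylserine receptor TIM4, had 75.0, 44.4, 39.2, 14.7 and 14.7 CPM in dKO, 41.4, 51.6, 35.2, 34.0 and 38.8 CPM in KO, and 43.2, 57.6, 42.2, 48.8 and 42.5 CPM in WT. The dKO group held both the highest library of all 15 and the lowest. Its log2 fold change in dKO against KO was -0.14 (SE 0.35), and Timd4 was at 0.40 without both 1753 libraries. Folr2, folate receptor beta, averaged 9.53 ± 0.951 CPM in dKO, 10.6 ± 2.35 CPM in KO and 13.6 ± 5.24 CPM in WT, and F13a1, a coagulation factor subunit made by macrophages, averaged 79.5 ± 21.3 CPM in dKO, 73.7 ± 15.8 CPM in KO and 87.4 ± 28.0 CPM in WT. These groups overlapped throughout.

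Retnla (ENSMUSG00000061100, mm9 chr16:48842665-48844574, 4 exons) had 35.4, 66.0, 54.7, 28.6 and 26.9 CPM in dKO, 41.2, 67.8, 37.8, 58.1 and 65.7 CPM in KO, and 80.6, 39.7, 68.6, 40.4 and 73.2 CPM in WT. Within KO and within WT its libraries formed a low and a high set, and the 2 lowest libraries were dKO libraries 4 and 5. Its values were -0.38 (SE 0.27) in dKO against KO and -0.55 (SE 0.28; edgeR adjusted p = 0.374) in dKO against WT. Ms4a6c (ENSMUSG00000079419, mm9 chr19:11543858-11556687, 8 exons) had 38.3, 23.9, 32.3, 8.17 and 8.48 CPM in dKO, 24.4, 23.0, 33.1, 35.1 and 45.4 CPM in KO, and 21.7, 38.4, 18.4, 27.5 and 41.9 CPM in WT. Only dKO libraries 4 and 5 lay outside the range of the other groups, and the value in dKO against WT, -0.50 (SE 0.40), was 0.07 for Ms4a6c without both of them. Laptm5 (ENSMUSG00000028581, mm9 chr4:130469040-130492056, 13 exons), a lysosomal membrane protein of leukocytes, had 171, 105, 136, 62.6 and 58.9 CPM in dKO, 119, 128, 89.8, 148 and 125 CPM in KO, and 120, 158, 118, 163 and 177 CPM in WT. Again dKO libraries 4 and 5 were the lowest of all, and the dKO against KO value of -0.21 (SE 0.25) was 0.17 for Laptm5 without them.

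dKO libraries 4 and 5, labelled 1753 and 1753-2, both lay below the other 3 dKO libraries in 14 of the 42 tested genes, where 28.4% of all genes did so, and above them in 12, where 30.4% of all genes did so. Both shares of the macrophage genes were close to those of all genes. The genes below were Csf1r, Mpeg1, Aif1, Laptm5, Lyz2, Cd163, Clec7a, Ms4a6c, Ccl8, Itgax, Cybb, Folr2, Timd4 and Retnla, and the genes above were Cd68, Itgam, Mrc1, Mgl2, Fcgr3, C1qb, Ccl6, Pf4, Gpnmb, Lgals3, F13a1 and Lyve1. The macrophage genes as a whole were thus at a lower mean in these libraries by a small step, with a mean log2 CPM of 4.03 in both, against 4.14 to 4.20 in the other 3 dKO libraries. Markers of other cells differed more. All 13 T cell, 11 B cell, 9 dendritic cell and 11 MHC class II genes tested lay below the other dKO libraries in both, and all 10 adipocyte genes lay above. The summed level of the T cell markers was 132 and 125 CPM in dKO libraries 4 and 5, against 393 to 584 CPM in the other dKO libraries, 291 to 440 CPM in KO and 336 to 647 CPM in WT. That of the B cell markers was 194 and 200 CPM in these libraries, against 491 to 814 CPM in the other dKO libraries, 595 to 785 CPM in KO and 470 to 969 CPM in WT. The part of lymphocytes and of these libraries in the macrophage results was not tested beyond the values given: with the mean of the T and B cell markers as a covariate, edgeR called 2 macrophage genes in KO against WT, Clec10a (adjusted p = 0.0371) and Cd163 (0.0466), 0 in dKO against KO (with 4 lower before adjustment at p under 0.05) and Fcgr3 alone in dKO against WT.

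WT library 4 was the highest WT library in 24 of the 42 tested macrophage genes (57.1%), where it was the highest in 17.0% of all tested genes. The separation was widest in the lipid-associated genes, which are known from macrophages that take up lipid of dying adipocytes. Gpnmb, a membrane glycoprotein of such cells, had 6.82, 6.03, 6.22, 22.0 and 14.2 CPM in dKO, 16.7, 13.1, 39.5, 8.06 and 13.8 CPM in KO, and 16.7, 19.8, 7.72, 145 and 15.2 CPM in WT. Its log2 fold changes of -1.75 (SE 0.75) in dKO against WT and -1.18 (SE 0.74) in KO against WT were the most negative of any tested member in both comparisons. Without WT library 4 Gpnmb was at -0.34 (SE 0.46) in dKO against WT and at 0.24 (SE 0.46) in KO against WT. Lgals3 (ENSMUSG00000050335, mm9 chr14:47987426-48005835, 8 exons), which encodes galectin-3, had 9.41, 8.03, 9.33, 22.7 and 20.4 CPM in dKO, 9.30, 10.4, 16.3, 10.6 and 13.4 CPM in KO, and 7.59, 10.8, 8.91, 38.2 and 16.3 CPM in WT. Without WT library 4 the value of Lgals3 was 0.41 in dKO against WT, where all libraries gave -0.13 (SE 0.40), and 0.09 in KO against WT, where they gave -0.45 (SE 0.41). Trem2 was at 6.87 CPM in WT library 4 and at 0.262 to 1.60 CPM in the other WT libraries, and Spp1 at 4.20 CPM and at 0.262 to 0.620 CPM. In dKO, libraries 4 and 5 were the highest for Gpnmb, Lgals3 and Trem2. Without WT library 4, 34 of the 42 macrophage genes had a negative value in KO against WT and 38 in dKO against WT.

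The spread within groups was wide for these genes. The median SD of log2 CPM over the macrophage genes was 0.43 in dKO, 0.36 in KO and 0.56 in WT, where over all tested genes it was 0.37, 0.27 and 0.31. KO library 5 was the highest KO library in 18 of the 42 genes (42.9%), where it was the highest in 21.1% of all genes, and it also held the 1 library in which Cx3cr1 had 0 counts.

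**Figure D4:**
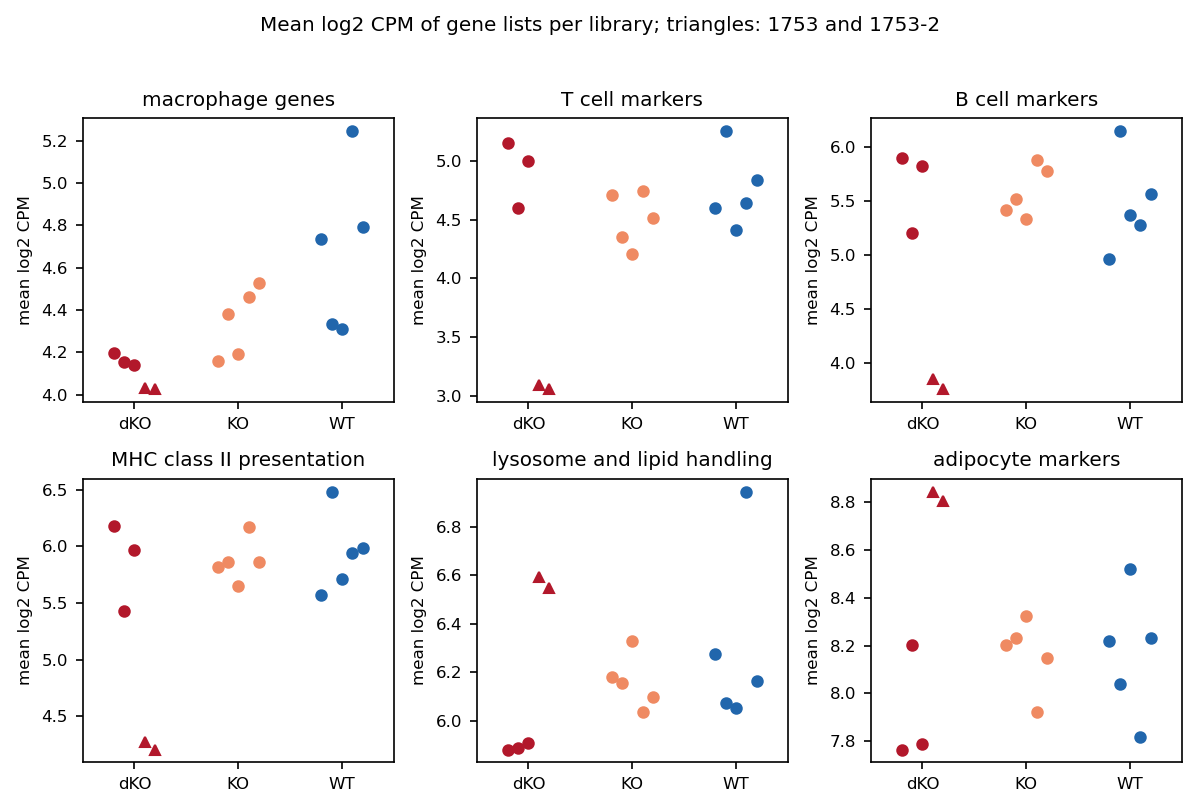
Mean log2 CPM per library of the 42 tested macrophage genes and of 5 other gene lists, in dKO (red), KO (orange) and WT (blue), with triangles for dKO libraries 4 and 5. The macrophage genes lie between 4.03 and 4.20 in dKO, 4.16 and 4.53 in KO and 4.31 and 5.24 in WT, while the T cell, B cell and MHC class II lists are low in dKO libraries 4 and 5 alone.

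Other genes known from macrophages and related cells were set beside the 42. Of 36 tested genes in the list of other myeloid genes, 30 had negative values in KO against WT (median -0.18). In dKO against KO 30 had them (median -0.31) and in dKO against WT 35 (median -0.45). In 23 of the 36, dKO libraries 4 and 5 both lay below the other 3 dKO libraries, where 28.4% of all genes did so. In 3 both lay above, where 30.4% of all genes did so. The part of these libraries in the dKO values of the list was not tested. edgeR called 1 of the 36 genes, in KO against WT, where it called 0.624% of all tested genes. DESeq2 and voom each called 2 in that comparison, Apoe and Stab1, where they called 1.54% and 2.35% of all genes. In dKO against WT DESeq2 called 4, Apoe, Csf2ra, Tlr13 and Emr4, where it called 1.93% of all genes. There edgeR and voom called 0, where they called 0.615% and 0.230% of all genes. In dKO against KO the 3 tools called 0, where edgeR and voom each called 0.0738% and DESeq2 0.304% of all genes. Before adjustment, at p under 0.05, edgeR had 4 lower in dKO against KO, where 2.85% of all genes were lower. It had 11 lower in dKO against WT, where 5.51% of all genes were lower. The gene called by edgeR, Apoe (ENSMUSG00000002985, mm9 chr7:20281458-20284515, 6 exons), the lipoprotein component made by macrophages and also by adipocytes and liver, had 183, 192, 205, 210 and 201 CPM in dKO, 162, 194, 179, 204 and 206 CPM in KO, and 281, 200, 296, 366 and 367 CPM in WT. KO and WT overlapped only through WT library 2. Apoe fell in KO against WT, with a log2 fold change of -0.68 (SE 0.15; edgeR adjusted p = 0.0408), and had -0.61 (adjusted p = 0.0708) in dKO against WT. The call on Apoe was lost without WT library 1, 3, 4 or 5, without any one of the 5 KO libraries, or without dKO library 2, with adjusted p between 0.0517 and 0.152.

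Transcription factors of macrophages (16 tested) had 11 negative values in KO against WT, 10 in dKO against KO and 12 in dKO against WT, with medians of -0.16, -0.08 and -0.34. MHC class II genes, which present antigen in macrophages, dendritic cells and B cells, had 8 of 11 negative values in KO against WT (median -0.09), 11 of 11 in dKO against KO (median -0.56) and 11 of 11 in dKO against WT (median -0.62), and all 11 lay lowest in dKO libraries 4 and 5, where their summed level was 405 and 395 CPM, against 1053 to 1578 CPM in the other dKO libraries. Growth factors and attractants of macrophages (13 of 24 tested) had a median of -0.21 in KO against WT, of -0.02 in dKO against KO and of -0.32 in dKO against WT. Inflammatory cytokines and signals (10 of 22 tested) had medians of -0.07, -0.08 and -0.18. Lysosome and lipid-handling genes had 22 of 25 negative values in KO against WT (median -0.22). They had 8 of 25 in dKO against KO (median 0.04) and 16 of 25 in dKO against WT (median -0.18). In dKO libraries 4 and 5, 20 of the 25 lay above the other dKO libraries, where 30.4% of all genes did so. All 10 adipocyte markers also lay above there, and the part of adipocytes in this list was not tested. In the 5 lists of this paragraph edgeR called 0 genes in any comparison. At an unadjusted p under 0.05, 0 to 6 genes of a list were lower and 0 to 3 higher. DESeq2 called 0 to 2 genes of a list and voom 0 to 3. Over the 3 comparisons edgeR called 0.0738 to 0.624% of all tested genes, DESeq2 0.304 to 1.93% and voom 0.0738 to 2.35%. At an unadjusted p under 0.05 edgeR had 2.85 to 5.51% of all genes lower and 3.32 to 9.01% higher.

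Markers of other cells were set beside the macrophage genes, and edgeR called 0 of their tested genes, where it called 0.0738 to 0.624% of all genes. At an unadjusted p under 0.05, 0 to 2 genes of a list were lower and 0 or 1 higher. Of all genes, 2.85 to 5.51% were lower and 3.32 to 9.01% higher at that threshold. DESeq2 called 1, the fibroblast gene Dcn in dKO against WT, where it called 1.93% of all genes. voom called 0, where it called 0.0738 to 2.35% of all genes. The medians, given here for KO against WT, then dKO against KO, then dKO against WT, were -0.28, -0.21 and -0.37 for 13 T cell markers, 0.10, -0.48 and -0.42 for 11 B cell markers, -0.12, -0.16 and -0.38 for 9 dendritic cell markers, and -0.11, -0.45 and -0.40 for 4 NK cell markers. They were -0.10, -0.35 and -0.62 for the 3 neutrophil markers that were tested out of 13, -0.09, -0.45 and -0.54 for 2 lymph node stroma markers, and 0.17, 0.25 and 0.25 for 4 mast cell and eosinophil markers. For 9 preadipocyte and fibroblast markers they were -0.34, 0.04 and -0.22, and all 9 had negative values in KO against WT, with a summed level of 1442 to 2134 CPM in KO and 1419 to 3827 CPM in WT, highest in WT library 4. For 5 lymphatic endothelial markers they were -0.69, 0.02 and -0.71, for 9 endothelial markers -0.08, 0.02 and -0.01, for 10 adipocyte markers 0.03, 0.20 and 0.26, and for 9 skeletal muscle markers 1.41, -2.05 and -0.44. The muscle markers summed to 8609 CPM in KO library 3, the library with the lowest share of macrophage counts in KO, and to 3669 CPM in WT library 1. None of the 8 mammary epithelium markers passed the filter on low counts. The part of these cell types in the macrophage results was not tested.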

How the data were processed

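The 15 RNA-seq libraries of inguinal fat were prepared with NuGEN Ovation kits and run on a HiSeq 2500, per the labels' protocols. Reads were aligned with Subread to mm9 and counted with featureCounts, per the submitters' processing notes, which also name FastQC and edgeR and give no versions. The sources used here do not give strand or multimapping settings. The raw counts per gene and gene lengths deposited by the authors were used, and 45 other per-sample columns (normalized values) were not. Total counts ran from 1564004 to 21570688 per library, of which 33.5 to 50.0% were mitochondrial ribosomal RNA, and 1 count was worth 0.0484 to 0.622 CPM. Depth limits precision for counting error only.

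Genes were filtered with filterByExpr (minimum count 10, minimum total 15), scaled by TMM and tested with edgeR 4.0.16 (quasi-likelihood, robust; R 4.3.3) with all 15 libraries in 1 fit, 12 residual degrees of freedom and Benjamini-Hochberg adjustment over 12188 genes, at 0.05. Log2 CPM used a prior count of 2. The SE was derived as the absolute log2 fold change divided by the square root of the test's F statistic. Scripts were tested on simulated data. Alternatives were DESeq2 1.42.0, limma 3.58.1 voom with sample weights, other size factors, no filter, 2 groups alone, a lymphocyte covariate, no mitochondrial ribosomal RNA, the 1753 libraries summed or left out, and each library left out. Genes named in full were those with the smallest p in each comparison and the most abundant per length in each role. Others named with values were chosen after their values were seen. The 45 genes and the 19 other lists were chosen with earlier results of these data known. Of 262 list entries 257 matched a gene, and the other 5 were not used here. Replicate numbers follow accession order and only name a library. F4/80 is listed under its older symbol Emr1. Promoters are RefSeq's (GRCm38.p6), and shared windows were counted in GENCODE transcripts.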

Additional observations from a re-analysis of the deposited data

Results flagged for a closer look

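In 12 of the 135 combinations of a macrophage gene and a group, 1 library lay far from the other 4 by Dixon's test, where chance gives about 5% of groups. Of these, 6 were WT library 4. It had 178 CPM of Mpeg1, 1019 CPM of Lyz2, 6.87 CPM of Trem2, 145 CPM of Gpnmb, 4.20 CPM of Spp1 and 38.2 CPM of Lgals3, and the next highest WT library had 94.8, 635, 1.60, 19.8, 0.620 and 16.3 CPM of these genes.

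KO library 5 was highest for Cd68, with 26.1 CPM and the next at 22.2 CPM, and for Lyve1, with 63.2 CPM and the next at 33.1 CPM. It was lowest for Cx3cr1, with 0 CPM and the next at 3.44 CPM. KO library 3 had 39.5 CPM of Gpnmb and the next 16.7 CPM. In dKO, library 2 had 41.2 CPM of Cd163 and the next 27.3 CPM, and library 1 had the lowest Fcer1g, at 10.4 CPM with the next at 20.1 CPM.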

How the results depend on the processing

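The median log2 fold change of the macrophage genes was negative in all 3 comparisons under every alternative run. Leaving out 1 library gave -0.48 to -0.23 in KO against WT, -0.36 to -0.19 in dKO against KO and -0.71 to -0.46 in dKO against WT. Counts of called macrophage genes, 0 in each comparison, became 1 by DESeq2, 2 by voom and 2 with the lymphocyte covariate in KO against WT, and 4 by DESeq2, 2 without the filter and 1 with the covariate in dKO against WT, where leaving out 1 library gave 0 to 2. The count of macrophage genes lower at an unadjusted p under 0.05 ran from 3 to 13 in KO against WT, 1 to 7 in dKO against KO and 16 to 28 in dKO against WT when 1 library was left out. Those lower without overlap ran from 1 to 2, 0 to 2 and 0 to 4. With the 1753 libraries summed, 1 gene was lower at an unadjusted p in dKO against KO. Without both, 1 was lower in that comparison and 14 in dKO against WT, and 3 were without overlap in each. Smaller groups separate more easily by chance, and the shares of all genes were not computed under these alternatives.

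Of 1223 values of named genes under alternatives, 1192 kept their sign and 31 did not, and the cause was not tested. In dKO against KO, Mrc1 was at -0.00019 by voom, -0.12 without both 1753 libraries and -0.12 with the covariate. Timd4 was at 0.078 with those libraries summed, 0.40 without them and 0.078 with the covariate. Laptm5 was at 0.17 without them and 0.00998 with the covariate, and Lgals3 at -0.39 and -0.16. In dKO against WT without them, Ms4a6c was at 0.075 and Timd4 at 0.18. With 1 library left out, Emr1 ran from -0.29 to 0.11, Ms4a6c from -0.063 to 0.25, Cybb from -0.042 to 0.21 and Lgals3 from -0.66 to 0.094 in KO against WT, and Lgals3 from -0.36 to 0.41 in dKO against WT. In dKO against KO, C1qb ran from -0.084 to 0.052, Cd163 from -0.060 to 0.15 and Timd4 from -0.58 to 0.080. No paired analysis was possible because the labels give the groups no shared replicate numbers. Genes with few counts, such as Cd14, Clec7a and Fcgr1, are limited by depth.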
